A study of Mus musculus with 20 samples.

Results

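The response of liver to a fast in mice lacking Plin2 is described here across all measured genes. Its members are the 5 liver libraries labelled fasted and the 5 labelled fed that carry no genotype in the label, 10 of the 20 libraries of the study. The other 10 libraries are labelled Plin2+/+, 5 fed and 5 fasted, and since the study used Plin2+/+ and Plin2-/- mice, the unlabelled libraries were read as Plin2-/- by elimination. All mice were female, 15 weeks old and of the C57BL/6N strain, and either ate chow or went without food for 24 h. Strand-specific mRNA libraries were sequenced from total RNA of liver tissue. The labels do not say how the Plin2 allele was made, whether the deletion was in every tissue, or which animal gave which library, so the p-values measure the spread between these libraries.

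Plin2 encodes perilipin 2, a main coat protein of hepatocyte lipid droplets. During a fast, fatty acids released from adipose tissue reach the liver, where they are oxidised in mitochondria and peroxisomes, turned into ketone bodies or stored for a time as triglyceride in droplets. Glucagon, glucocorticoids and the fatty acid sensor PPARα are known to raise the genes of oxidation, ketone body and glucose production, while the loss of insulin lowers those of fatty acid and sterol synthesis. Values below are CPM, counts relative to the scaled total of the library, and differences are log2 fold changes of fasted over fed with their standard error, called at an adjusted p under 0.05 in edgeR's quasi-likelihood test with Benjamini-Hochberg adjustment over all 16312 genes tested. Each group has n = 5, and means of CPM or TPM are given with the SD over these libraries.

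Of these 16312 genes, 2942 rose and 2954 fell in the Plin2-null liver, 36.1% in all (18.0% higher and 18.1% lower), and 1988 genes (12.2%) did so by at least 1 on the log2 scale. The shares of 18.0% higher and 18.1% lower are the background for each count of list members below. The fed and fasted values did not overlap for 3990 genes (24.5%), of which 3830 were called. A difference of 3 or more on the log2 scale was reached by 107 genes that rose and 100 that fell. The balance of directions depended on the scaling: by library size alone 1376 genes rose and 4243 fell, and on log2(TPM + 1), TPM being the deposited level per transcript length, 1014 rose and 4566 fell. The median over all genes was -0.0058 with the scaling used here, -0.21 by library size and -0.18 on log2(TPM + 1), so directions of small changes are relative to the scaling. Fewer genes reached 1 CPM after the fast, between 12340 and 12429 against 12435 to 12610 in the fed libraries (exact two-sided permutation p = 0.00794, the smallest that 5 against 5 libraries allow). The 100 most abundant genes took 47.7% ± 2.3 (SD) of counts outside ribosomal RNA against 44.8% ± 0.45 (exact two-sided permutation p = 0.0476). That p rose to between 0.0556 and 0.0794 when any single one of 8 libraries was left out.

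The libraries held between 34295697 and 47586449 counts. On the first principal component, with 54.8% of the variance, all 5 fasted libraries lay on one side and all 5 fed libraries on the other. Ribosomal RNA rows made up 5.54% to 12.0% of fed and 6.16% to 24.8% of fasted library counts, the highest value being fasted library 3 (means 8.32% and 13.3%, exact two-sided permutation p = 0.159). Without that library 2418 genes rose and 2686 fell. Plin2 counts remained in the libraries read as Plin2-/-, at 32.1, 15.3, 16.8, 17.8 and 16.7 CPM in the fed and 78.0, 85.4, 83.8, 75.1 and 130.4 CPM in the fasted libraries, against 309.8, 274, 203, 196 and 319 CPM in the fed and 1483, 1092, 1696, 1544 and 1653 CPM in the fasted libraries of the Plin2+/+ groups. No null library overlapped the Plin2+/+ library group of the same feeding state. What remained rose on fasting (2.20 ± 0.21, adjusted p = 6.32e-08), and among the null libraries fed library 1 and fasted library 5 stood highest in their groups. Where in the gene these reads lie cannot be seen from a count per gene. The summed level of 10 hepatocyte markers was 97162 to 116396 CPM fed and 87278 to 124625 CPM fasted.

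Promoter sequences are shown for 8 genes of 4 lists, to show where the letters of a known regulatory motif stand in them. Windows of 250 bases before the start were taken from RefSeq promoters of the mouse build GRCm38.p6, in which 25113 promoters matched a symbol of the count table, and each motif was searched on both strands. The sterol regulatory element that SREBP proteins bind was searched as TCACNCCAC and occurred in 1.08% of all promoters. In the list of mevalonate and sterol synthesis it occurred in 1 of 18 promoters, that of Hmgcs1, which is shown from chr13:119690171-119690350 with the motif in capitals.
Hmgcs1: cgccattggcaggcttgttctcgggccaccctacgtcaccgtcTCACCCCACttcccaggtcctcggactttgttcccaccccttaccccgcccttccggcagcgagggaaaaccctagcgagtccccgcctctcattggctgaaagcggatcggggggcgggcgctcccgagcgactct
The interferon-stimulated response element, searched as GAAA, any 2 bases and GAAACT, occurred in 0.263% of all promoters and in 7 of 25 (28.0%) in the list of interferon-stimulated genes. In the strand of the gene it reads AGTTTC, any 2 bases and TTTC, and is in capitals for Gbp7 (chr3:142530236-142530335), Ifit1 (chr19:34640759-34640869) and Ifit3 (chr19:34583339-34583429).
Gbp7: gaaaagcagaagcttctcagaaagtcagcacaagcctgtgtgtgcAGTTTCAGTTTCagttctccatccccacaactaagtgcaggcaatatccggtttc
Ifit1: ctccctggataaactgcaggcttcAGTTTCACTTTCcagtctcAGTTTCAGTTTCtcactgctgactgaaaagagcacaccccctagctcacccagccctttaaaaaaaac
Ifit3: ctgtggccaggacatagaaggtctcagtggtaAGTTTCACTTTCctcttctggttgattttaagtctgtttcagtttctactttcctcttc
The endoplasmic reticulum stress element, CCAAT, any 9 bases and CCACG, contains the CCAAT box, and occurred in 0.131% of all promoters and in 7 of 17 (41.2%) in the list of ER chaperones. It is in capitals for Pdia6 (chr12:17266459-17266539), Canx (chr11:50325733-50325843, minus strand) and Calr (chr8:84847011-84847111, minus strand), the 3 of these 7 that fell. In the strand of the gene the element of Calr reads CGTGG, any 9 bases and ATTGG. Hspa5, Hsp90b1, Dnajc3 and Creld2 also held it and were not called. Of all 20 tested genes whose promoter held it, 7 fell, 1 rose and 12 were not called. Of all 11118 tested genes with a promoter, 2058 fell and 2166 rose.
Pdia6: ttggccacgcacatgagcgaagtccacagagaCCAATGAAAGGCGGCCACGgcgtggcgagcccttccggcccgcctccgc
Canx: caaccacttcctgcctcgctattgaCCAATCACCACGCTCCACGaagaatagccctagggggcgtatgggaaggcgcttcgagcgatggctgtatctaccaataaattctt
Calr: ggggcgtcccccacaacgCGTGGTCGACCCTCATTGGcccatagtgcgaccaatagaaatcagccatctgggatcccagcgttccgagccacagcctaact
The E-box that clock proteins bind, CACGTG, occurred in 6.39% of all promoters and in 6 of 21 (28.6%) in the clock list, and the promoter of Ciart (chr3:95882258-95882368, minus strand) held 3 copies, in capitals. Of 5 clock genes with an E-box, Ciart and Per1 rose and 3 were not called. Of all 1061 tested genes with an E-box, 245 rose and 157 fell.
Ciart: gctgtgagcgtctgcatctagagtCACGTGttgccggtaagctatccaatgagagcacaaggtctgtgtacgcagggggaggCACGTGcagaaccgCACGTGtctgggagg
The short CCAAT box alone occurred in 34.4% of all promoters, in 14 of 18 (77.8%) of the sterol list and in 14 of 17 (82.4%) of the ER chaperone list. The direct repeat that PPARα binds, searched as AGGTCA, any base and AGGTCA, was in 0.0438% of all promoters and in no promoter of the lists of mitochondrial or peroxisomal oxidation or Cyp4 hydroxylation, also with 1 more free base in each repeat (0.315% of all). Of the motifs searched besides, TTTNGCGC (E2F) was in 3 of 20 promoters (15.0%) of the replication list against 1.3% of all, and TGATGNAAN (CARE) in 4 of 15 (26.7%) of the integrated stress response list against 3.25%. The glucocorticoid element was in 1 of 20 (5.00%) of the glucocorticoid list against 0.111%, and GTAAACA (FOXO) in 1 of 20 of the insulin list against 2.88%. For TGACGTCA (CRE) it was 2 of 20 (10.0%) of the gluconeogenesis list against 1.8%, and for TTATGNAA (D-box) 2 of 21 (9.52%) of the clock list against 2.93%. These matches describe letters in a window, not binding.

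**Figure D1:**
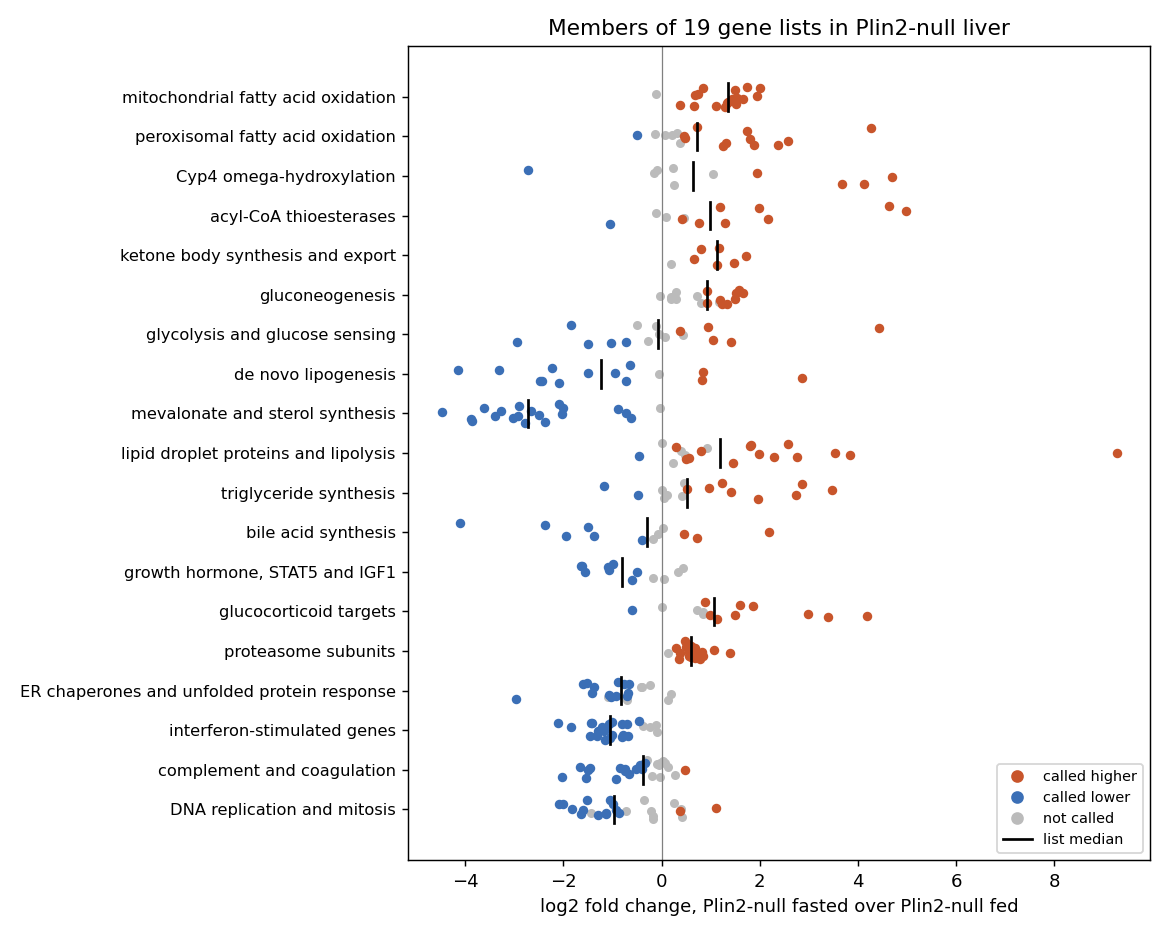
Log2 fold change of fasted over fed Plin2-null liver (x axis) for every tested member of 19 gene lists (y axis), 1 point a gene, coloured by whether it was called higher, called lower or not called, with a vertical bar at each list's median. Points of fatty acid oxidation and lipid droplet genes lie mostly to the right of 0 and those of sterol synthesis, interferon-stimulated genes and ER chaperones mostly to the left.

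Genes of mitochondrial fatty acid oxidation rose almost together. Of 18 tested, 17 rose and none fell, with a median of 1.34 against -0.0058 over all genes. By library size 14 rose and 1 fell, and on log2(TPM + 1) 13 rose and 1 fell. Cpt1a, which makes the acylcarnitines that enter mitochondria and is the controlled step of the pathway, was at 337, 230.3, 252, 244 and 250 CPM in the fed and 1049, 1068, 1039.9, 1066 and 1025 CPM in the fasted libraries (log2 fold change 2.0 ± 0.11, adjusted p = 2.82e-11). Even fed library 1, the highest of the fed group, stood far below every fasted library. The carnitine carrier Slc25a20 (1.5 ± 0.15, adjusted p = 6.81e-08), the inner membrane transferase Cpt2 (1.53 ± 0.12) and the medium-chain dehydrogenase Acadm (1.95 ± 0.12, adjusted p = 5.68e-11) rose with it. So did Hadhb, the thiolase subunit of the trifunctional protein (1.65 ± 0.13), and the isomerase Eci1 (1.75 ± 0.16). The exception was Echs1, the short-chain hydratase, which averaged 131 ± 14.5 CPM fed and 121 ± 12.1 CPM fasted (-0.11 ± 0.11, adjusted p = 0.439). It fell with scaling by library size (-0.33) and on log2(TPM + 1) (-0.40).

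In the list of carnitine synthesis and transport 7 of 12 tested genes rose and 1 fell, the folate enzyme gene Shmt1 (-0.41). Slc22a5, the plasma membrane importer of carnitine, was at 17.3, 13.1, 14.4, 20.6 and 11.9 CPM in the fed and 130, 123, 128, 144 and 130 CPM in the fasted libraries (log2 fold change 3.08 ± 0.16, adjusted p = 9.83e-12), with no overlap between the groups. Crat, which exchanges short acyl groups between carnitine and coenzyme A, rose from 38.4 ± 9.87 to 230.0 ± 10.2 CPM (2.58 ± 0.18, adjusted p = 4.96e-10). Bbox1, the last enzyme of carnitine synthesis, rose by less (0.57 ± 0.13, adjusted p = 0.00144) and was no longer called on log2(TPM + 1) (0.26).

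In the peroxisome, 11 of 17 tested genes of fatty acid oxidation rose and 1 fell, median 0.73. By library size and on log2(TPM + 1) 9 rose and 1 fell. Ehhadh, the bifunctional hydratase and dehydrogenase, was at 321, 233, 253, 241 and 235 CPM in the fed and 3962, 4851, 5331, 4661 and 5743 CPM in the fasted libraries (log2 fold change 4.26 ± 0.19, adjusted p = 1.26e-12). Every fasted library lay far above every fed one. The thiolase Acaa1b rose from 163 ± 48.1 to 843 ± 170.1 CPM (2.37 ± 0.31, adjusted p = 8.69e-06). Acaa1a and Acaa1b are close copies, so the division of reads between them is uncertain. Hsd17b4, the second bifunctional enzyme, rose by 1.80 ± 0.14 and Abcd3, a transporter of acyl-CoA into the peroxisome, by 1.26 ± 0.16. Pecr, a reductase of trans-2-enoyl-CoA, was the member that fell (-0.50 ± 0.12, adjusted p = 0.00232). Of 16 genes of peroxisome biogenesis 10 rose and none fell, against 5 and 1 on log2(TPM + 1), led by Pex11a, a division factor, which rose from 30.3 ± 6.37 to 260.4 ± 25.2 CPM (3.10 ± 0.15, adjusted p = 2.21e-12). The docking factor Pex14 rose by 1.2 ± 0.18.

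The ω-hydroxylases of the Cyp4 family oxidise the far end of fatty acids, and 4 of 10 tested members rose while 1 fell, or 2 by library size. Cyp4a14 (GENCODE M21, build GRCm38, chromosome 4 from 115486200 to 115496142) was at 375, 312, 328, 964 and 309.8 CPM in the fed and 10489, 12569, 12566, 11461 and 12183 CPM in the fasted libraries, a log2 fold change of 4.69 ± 0.52, adjusted p = 1.46e-06. Fed library 4 stood well above the other fed libraries for this gene and still far below the lowest fasted one. Cyp4a10 (chromosome 4 from 115518264 to 115533649) was at 422, 245, 197, 476 and 262 CPM in the fed and 5588, 6381, 5877, 4894 and 5031 CPM in the fasted libraries (4.12 ± 0.47, adjusted p = 2.31e-06). Cyp4a10, Cyp4a14 and their neighbours are near-identical copies, so the share of each is uncertain. Cyp4f14, which acts on leukotrienes and vitamin K side chains, fell from 287 ± 39.2 to 43.5 ± 10.6 CPM (-2.73 ± 0.16, adjusted p = 6.63e-11).

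Thioesterases, which release fatty acids from coenzyme A, rose in 8 of 12 cases and fell in 1. Acot2 of the mitochondrial matrix was at 3.46, 4.27, 2.15, 2.75 and 2.83 CPM in the fed and 82.5, 94.5, 104, 103 and 103 CPM in the fasted libraries (4.98 ± 0.28, adjusted p = 9.54e-11), and its cytosolic neighbour Acot1, a near-identical copy whose reads may be shared with it, rose from 10.9 ± 5.08 to 271 ± 28.9 CPM (4.64 ± 0.43, adjusted p = 1.89e-07). Acot3 of the peroxisome also rose (2.17 ± 0.51, adjusted p = 0.00317), and Acot11 fell (-1.06 ± 0.24, adjusted p = 0.00127). Acyl-CoA synthetases did not share a direction, 6 of 15 rising and 5 falling. Acsl1, the main long-chain synthetase of liver, rose by 1.03 ± 0.14, and Slc27a1, a fatty acid transport protein low in fed liver, rose from 4.97 ± 0.539 to 41.3 ± 16.9 CPM (3.05 ± 0.23, adjusted p = 2.21e-09). The acetate-activating Acss2, a lipogenic gene, fell from 211 ± 130.4 to 42.8 ± 4.85 CPM (-2.30 ± 0.32, adjusted p = 1.44e-05). Among genes of uptake and binding 5 of 11 rose and 2 fell, but 3 rose without fasted library 3, and 2 rose and 2 fell by library size. Slc27a2 rose by 1.88 ± 0.16, the receptor Cd36 by 0.98 ± 0.19 and Fabp2 by 1.81 ± 0.19. Fabp5, a binding protein of skin and adipose tissue, fell from 73.1 ± 47.6 to 7.74 ± 3.92 CPM (-3.24 ± 0.57, adjusted p = 2.94e-04).

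Ketone body genes, of synthesis and of export, rose in 6 of 7 cases and none fell, median 1.12. The thiolase Acat1 was at 293, 233, 194, 216 and 249.8 CPM in the fed and 565, 587, 526, 419.8 and 478 CPM in the fasted libraries (1.12 ± 0.13, adjusted p = 6.14e-07), without overlap, and the monocarboxylate transporter Slc16a7 rose by 1.47 ± 0.15.

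**Figure D2:**
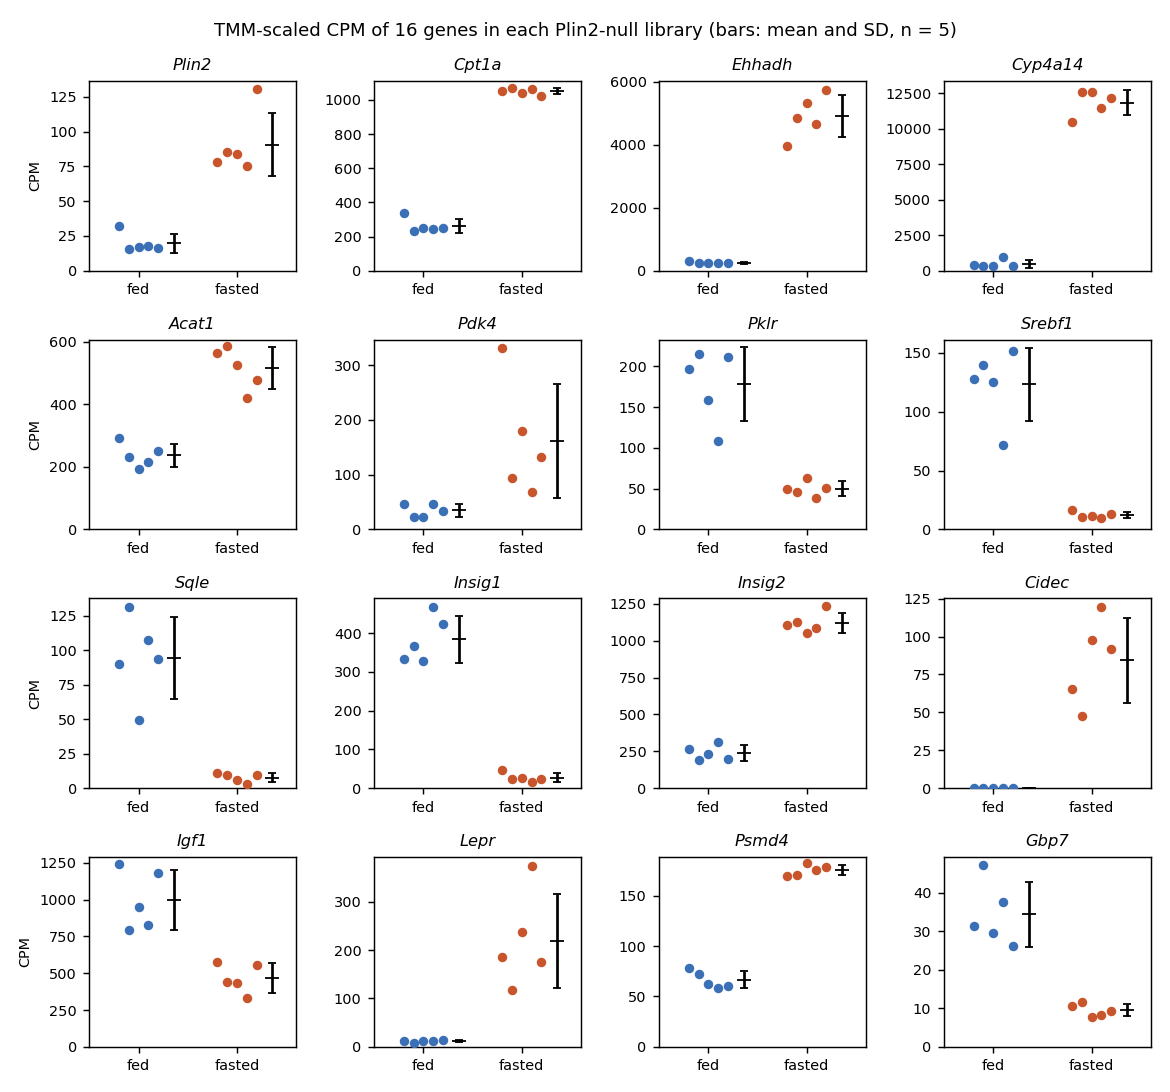
TMM-scaled CPM (y axes, linear from 0) of 16 genes in each fed and fasted Plin2-null library, 1 point a library, with bars for the mean and SD of 5. For Cpt1a, Ehhadh and Acat1 every fasted point lies above every fed point.

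Of 17 genes of gluconeogenesis 9 rose, 8 were not called and none fell, and 7 rose without fasted library 3 or with the share of ribosomal RNA as a covariate. The median was 0.92. Pck1, the committed enzyme, was at 1635, 565, 1081, 959 and 191 CPM in the fed and 2738, 2937, 2802, 1935 and 3650.0 CPM in the fasted libraries (1.67 ± 0.43, adjusted p = 0.00535). The libraries of both groups varied widely yet did not overlap. Pyruvate carboxylase, encoded by Pcx, rose from 307 ± 74.8 to 864 ± 61.4 CPM (1.49 ± 0.25, adjusted p = 7.08e-05), the alanine transaminase Gpt2 by 1.51 ± 0.19 and the glucose 6-phosphate carrier Slc37a4 by 1.57 ± 0.19. G6pc, the last step to free glucose, averaged 307 ± 153 CPM fed and 539 ± 195 CPM fasted, which did not pass the test (0.81 ± 0.42, adjusted p = 0.142). Pdk4, the kinase that shuts pyruvate dehydrogenase, was at 47.1, 23.3, 22.0, 47.1 and 34.4 CPM in the fed and 331, 94.7, 179, 68.3 and 132 CPM in the fasted libraries (2.21 ± 0.44, adjusted p = 8.09e-04). In the list of that complex and its kinases 6 of 12 rose and none fell, against 3 rising by library size and 2 on log2(TPM + 1).

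Over glycolysis and glucose sensing 5 of 16 rose and 5 fell. The pyruvate kinase gene Pklr fell from 178 ± 45.1 to 49.8 ± 9.03 CPM (-1.84 ± 0.21, adjusted p = 9.33e-07), and all fasted libraries were below all fed ones. Mlxipl, the gene of the glucose-sensing factor ChREBP, fell by 1.5 ± 0.17. In glycogen metabolism 2 of 14 rose and 5 fell, and 8 fell by library size. The synthase Gys2 rose by 1.26 ± 0.12, while Ppp1r3b, which targets a phosphatase to glycogen, fell from 492 ± 189 to 164 ± 29.3 CPM (-1.58 ± 0.23, adjusted p = 2.06e-05) and the phosphorylase Pygl fell by 0.72 ± 0.15, with overlapping groups.

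Fatty acid synthesis fell. Of 14 genes of de novo lipogenesis 10 fell and 3 rose, median -1.23. Srebf1, which encodes the lipogenic factor SREBP-1, was at 128, 139.8, 125, 71.6 and 152 CPM in the fed and 16.9, 10.3, 11.7, 9.95 and 13.0 CPM in the fasted libraries (-3.32 ± 0.27, adjusted p = 1.78e-08), without overlap. Fasn, the fatty acid synthase, fell from 486 ± 157 to 114 ± 29.1 CPM (-2.09 ± 0.28, adjusted p = 1.07e-05), Acly, which makes cytosolic acetyl-CoA, fell by 2.23 ± 0.22, and Thrsp, a lipogenic nuclear protein, fell by 2.43 ± 0.41. Pnpla3, a droplet hydrolase under SREBP control, fell from 5.08 ± 3.11 to 0.286 ± 0.0641 CPM (-4.15 ± 0.46, adjusted p = 6.09e-07). Among desaturases and elongases 6 of 14 fell and 5 rose, and 3 rose by library size. Scd1, the Δ9 desaturase, was at 5905, 5019, 4754, 1756 and 5060.2 CPM in the fed and 714, 655, 1007, 426 and 2082 CPM in the fasted libraries (-2.20 ± 0.46, adjusted p = 0.00108), where fed library 4 was lowest and fell within the fasted range. The elongase Elovl6 fell by 1.91 ± 0.20.

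Sterol synthesis genes fell. Of 20 tested genes 19 fell and none rose, with a median of -2.72, and the count was 19 with each of the other scalings too. Hmgcs1, whose promoter is shown above, was at 776, 1787, 445, 1142 and 745 CPM in the fed and 182, 156, 131, 86.4 and 157 CPM in the fasted libraries (-2.78 ± 0.38, adjusted p = 1.52e-05), and every fasted library lay below every fed one. The isomerase Idi1 fell by 3.87 ± 0.40 and the decarboxylase Mvd fell by 3.87 ± 0.39. The prenyl synthase Fdps fell from 20.9 ± 6.79 to 0.935 ± 0.402 CPM (-4.47 ± 0.39, adjusted p = 5.17e-08) and the epoxidase Sqle from 94.3 ± 29.8 to 7.69 ± 3.36 CPM (-3.62 ± 0.33, adjusted p = 1.31e-07). Hsd17b7 was the member not called (-0.037 ± 0.20, adjusted p = 0.899). In the list of SREBP processing and sterol uptake 7 of 15 fell and 4 rose. Insig1, which retains SREBP in the ER, fell from 384 ± 60.1 to 27.3 ± 11.4 CPM (-3.81 ± 0.27, adjusted p = 1.79e-09), whereas its paralog Insig2 rose from 239.8 ± 52.8 to 1122 ± 68.4 CPM (2.23 ± 0.18, adjusted p = 6.93e-09).

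Most lipid droplet genes rose. Of 20 tested genes of droplet proteins and lipolysis, Plin2 among them, 14 rose and 1 fell, median 1.19. By library size and on log2(TPM + 1) 11 rose and 1 fell. Cidec (GRCm38, chromosome 6 from 113424634 to 113435760), which joins droplets at their contacts, was at 0.132, 0.245, 0.117, 0 and 0.164 CPM in the fed and 65.3, 47.5, 97.7, 119 and 91.9 CPM in the fasted libraries. It was close to 0 in all fed libraries and its log2 fold change was 9.27 ± 0.56, adjusted p = 9.35e-10, a size that depends on the offset added to low values (6.39 on log2(TPM + 1)). Plin5, a droplet coat protein of oxidative tissue, was at 17.2, 8.85, 11.7, 9.64 and 12.7 CPM in the fed and 106, 117, 157, 167 and 153 CPM in the fasted libraries (3.54 ± 0.24, adjusted p = 7.66e-10), and Plin4 rose from 4.87 ± 3.35 to 69.9 ± 15.9 CPM (3.84 ± 0.50, adjusted p = 1.33e-05). Plin3, another perilipin, averaged 21.8 ± 4.16 CPM fed and 30.4 ± 8.28 CPM fasted (0.48 ± 0.20, adjusted p = 0.0585) and passed the threshold in 8 of the alternative fits. The droplet assembly protein Fitm2 rose by 1.99 ± 0.16 and Hsd17b11 by 1.82 ± 0.15.

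Both a lipase and its inhibitors rose. Pnpla2, which encodes the triglyceride lipase ATGL, was at 21.1, 22.1, 24.2, 15.1 and 17.0 CPM in the fed and 102, 85.3, 172, 166 and 146 CPM in the fasted libraries (2.75 ± 0.27, adjusted p = 2.33e-07), without overlap. Its inhibitor G0s2 rose from 24.0 ± 14.6 to 117 ± 26.6 CPM (2.29 ± 0.55, adjusted p = 0.00369), and the inhibitor Hilpda rose from 1.25 ± 0.179 to 7.45 ± 6.02 CPM (2.57 ± 0.37, adjusted p = 2.05e-05), by 1.94 without fasted library 1, which stood above the others. The lipase Mgll, which takes the last fatty acid, rose by 1.81 ± 0.26. The coactivator Abhd5 averaged 22.4 ± 1.16 CPM fed and 22.6 ± 0.926 CPM fasted (0.011 ± 0.10, adjusted p = 0.940). For triglyceride synthesis 8 of 15 rose and 2 fell. The acyltransferase Gpat3 rose from 4.93 ± 1.11 to 32.9 ± 9.25 CPM (2.74 ± 0.27, adjusted p = 2.19e-07), the phosphatidate phosphatases Lpin1 and Lpin2 by 2.85 ± 0.64 and 1.96 ± 0.28, and the low-expressed Mogat1 from 0.0903 ± 0.0291 to 1.02 ± 0.188 CPM (3.48 ± 0.50, adjusted p = 1.14e-05). The last step was split, with Dgat1 rising by 0.96 ± 0.13 and Dgat2 falling (-0.48 ± 0.11, adjusted p = 0.00251).

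Levels of different genes can be compared per transcript length, in TPM. The log2 fold changes printed beside TPM are those of the edgeR fit on counts. Its scaling differs from that of TPM, so they are not the ratios of the TPM means. Apoa4, a lipoprotein component low in fed liver, was at 182, 93.9, 124, 147 and 102 CPM in the fed and 3564, 3022, 3634, 5149.6 and 2934 CPM in the fasted libraries, a log2 fold change of 4.82 ± 0.44, adjusted p = 1.09e-07, and its level per length rose from 200.1 ± 51.9 to 4743 ± 1795 TPM. Apoa1, the main protein of HDL, rose from 9978 ± 2665 to 18948 ± 4299.6 TPM (1.2 ± 0.22, adjusted p = 1.93e-04), Rbp4, the retinol carrier, from 2883 ± 297 to 5219.9 ± 1013 TPM (1.14 ± 0.12, adjusted p = 1.45e-07), and Mat1a, which makes S-adenosylmethionine, from 2818 ± 572 to 6512 ± 1170.5 TPM (1.49 ± 0.21, adjusted p = 9.24e-06). The ethanol-oxidising Cyp2e1 rose from 6128 ± 328 to 9231 ± 1383 TPM. Transcripts lost in abundance included Trf, transferrin, from 11304 ± 618 to 5859 ± 829 TPM (-0.66 ± 0.11, adjusted p = 1.09e-04), Ttr, transthyretin, from 7302 ± 641 to 3181 ± 913 TPM (-0.92 ± 0.14, adjusted p = 2.48e-05), and Gstm1, a glutathione transferase, from 2059.6 ± 324 to 733 ± 244 TPM (-1.18 ± 0.19, adjusted p = 6.30e-05). Car3, a carbonic anhydrase, fell from 1608 ± 697 to 25.8 ± 18.7 TPM (-5.68 ± 0.56, adjusted p = 4.19e-07) and Rgn, regucalcin, from 2538 ± 160.4 to 346 ± 123 TPM (-2.58 ± 0.24, adjusted p = 3.75e-08). Among 17 apolipoproteins and lipoprotein assembly genes 5 rose and none fell, the transfer protein gene Mttp (1.32 ± 0.12) and Apoa5 (1.11 ± 0.19) included, and by library size 3 fell. Apob averaged 6446 ± 1235 CPM fed and 6269 ± 637 CPM fasted (-0.04 ± 0.14, adjusted p = 0.845).

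**Figure D3:**
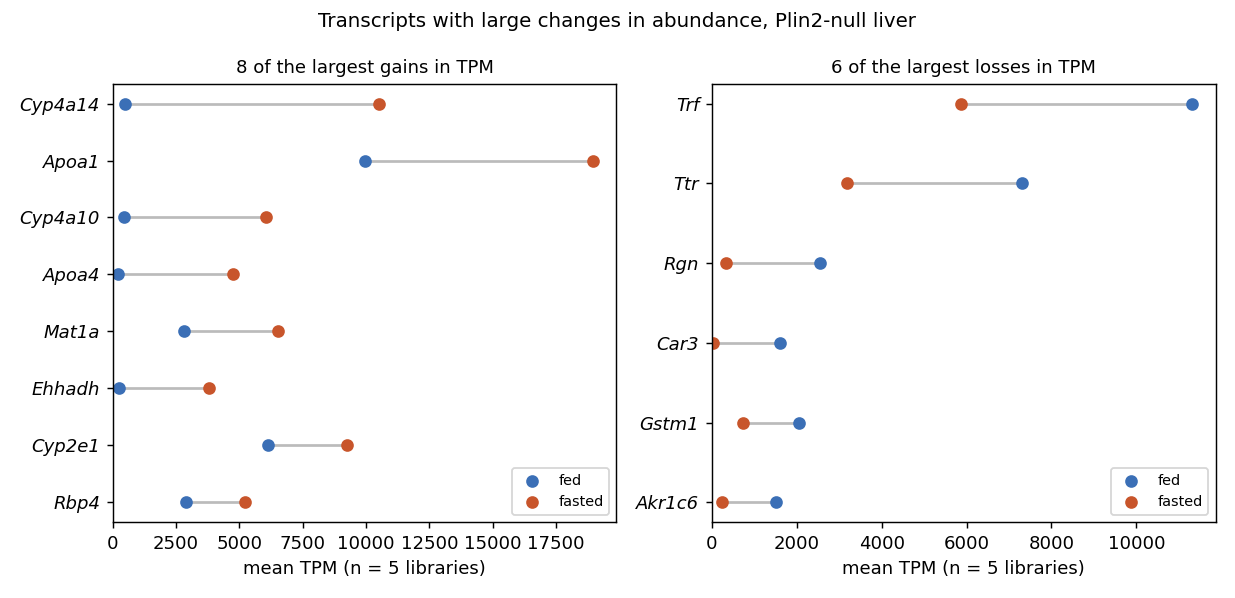
Mean deposited TPM (x axes, linear from 0; n = 5 libraries) of genes described here that are among the 12 called genes with the largest rise, or the 12 with the largest fall, in TPM, with 1 point for fed and 1 for fasted Plin2-null liver. Apoa4, Cyp4a14 and Mat1a are among those that rose, and Trf, Car3 and Ttr among those that fell.

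Bile acid genes moved apart. Of 12 synthesis genes 3 rose and 6 fell. Cyp8b1, which sets the share of cholic acid, was at 248, 208, 157, 236 and 136 CPM in the fed and 901, 829, 766, 1119 and 881 CPM in the fasted libraries (2.19 ± 0.25, adjusted p = 8.06e-07), and Cyp39a1, an oxysterol hydroxylase, rose by 1.67 ± 0.25. Cyp7a1, the rate-limiting enzyme, was at 182, 122, 176, 455 and 300.1 CPM in the fed and 35.2, 82.4, 36.6, 17.4 and 149 CPM in the fasted libraries (-1.94 ± 0.61, adjusted p = 0.0198). Its groups overlapped, and the call was lost without fed library 4 (adjusted p = 0.0587) or fasted library 3 (adjusted p = 0.0501). Cyp2c70, which makes the muricholic acids of mice, fell from 770.3 ± 101 to 44.8 ± 16.3 CPM (-4.11 ± 0.33, adjusted p = 1.82e-08), as did the ketosteroid reductase Akr1c6 (-2.38 ± 0.26, adjusted p = 5.48e-07). Among bile acid transporters and FXR genes 5 of 14 rose and 4 fell, and 3 rose by library size. The export pump Abcb11 fell by 1.19 ± 0.15 and the importer Slco1a1 from 304 ± 73.7 to 24.0 ± 9.49 CPM (-3.66 ± 0.33, adjusted p = 7.19e-08), while the phospholipid exporter Abcb4 rose from 189.7 ± 28.1 to 702 ± 64.2 CPM (1.89 ± 0.13, adjusted p = 5.85e-10).

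Hormone-like secreted factors changed in both directions, 7 of 18 rising and 4 falling, or 7 falling on log2(TPM + 1). Over all genes 18.0% rose and 18.1% fell, so the count of 4 falling was near the share over all genes. Fgf21, the fasting hormone of liver, was at 1.75, 0.200, 0.235, 0.151 and 0.350 CPM in the fed and 7.92, 12.7, 12.5, 22.6 and 18.4 CPM in the fasted libraries (4.77 ± 0.64, adjusted p = 1.44e-05). Fed library 1 was highest of the fed group, and without it the difference was 5.97. Angptl4, an inhibitor of lipoprotein lipase, was at 73.8, 24.5, 12.1, 24.2 and 9.60 CPM in the fed and 148, 175, 179.6, 156 and 172 CPM in the fasted libraries (2.52 ± 0.41, adjusted p = 1.10e-04), or 3.24 without fed library 1. Igfbp1, which binds IGF1, rose from 42.8 ± 29.7 to 307 ± 121 CPM (2.84 ± 0.82, adjusted p = 0.0124). Angptl8, a partner of other angiopoietin-like proteins made in fed liver, averaged 22.2 ± 22.7 CPM fed and 5.95 ± 3.05 CPM fasted (-1.90 ± 0.70, adjusted p = 0.0437), a call lost without fed library 5 (-1.03, adjusted p = 0.222) and in 11 further alternatives.

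The growth hormone axis fell. Of 12 genes 8 fell and none rose, median -0.80. The count falling was 6 with voom or with only the 10 Plin2-null libraries. It was 7 on log2(TPM + 1) or without fasted library 3. Igf1 was at 1243, 796, 948, 829 and 1184 CPM in the fed and 579.5, 440.3, 434, 329 and 559 CPM in the fasted libraries (-1.09 ± 0.16, adjusted p = 1.54e-05) and the receptor Ghr fell from 396 ± 41.7 to 128 ± 21.5 CPM (-1.63 ± 0.16, adjusted p = 7.82e-08), both without overlap. Other receptors differed by member. Lepr, the leptin receptor, was at 11.8, 7.65, 12.5, 11.2 and 14.3 CPM in the fed and 185, 117, 238, 374 and 176 CPM in the fasted libraries (4.24 ± 0.47, adjusted p = 1.80e-06), and its soluble and signalling forms cannot be told apart in a count per gene. Lifr, the receptor of leukaemia inhibitory factor, fell from 813 ± 209 to 131 ± 13.4 CPM (-2.64 ± 0.16, adjusted p = 6.63e-11) and the adrenergic receptor Adra1b from 60.6 ± 10.3 to 10.5 ± 2.96 CPM (-2.52 ± 0.26, adjusted p = 3.62e-07). Of 13 genes known for male bias in liver 7 fell and none rose in these female mice.

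Glucocorticoid targets rose in 9 of 14 cases and fell in 1, median 1.06. Fkbp5, a chaperone of the receptor, rose from 58.0 ± 12.9 to 174 ± 40.0 CPM (1.59 ± 0.25, adjusted p = 4.02e-05). Per1, a clock gene that is also a glucocorticoid target, rose from 4.73 ± 2.95 to 37.4 ± 18.2 CPM (2.98 ± 0.62, adjusted p = 0.00122). The metallothionein Mt1, which binds zinc, was at 22.2, 7.45, 11.9, 17.3 and 8.53 CPM in the fed and 144, 86.6, 148, 87.6 and 244 CPM in the fasted libraries (3.40 ± 0.53, adjusted p = 8.94e-05), and Mt2 rose by 4.18 ± 0.83, or 4.95 without fed library 4. In the clock list 3 of 19 rose and 1 fell, no more than the shares over all genes (18.0% higher and 18.1% lower). The list median was 0.015. The fall was not called without fasted library 3 or with the share of ribosomal RNA as a covariate. Ciart, a clock repressor whose promoter held 3 E-boxes, averaged 0.126 ± 0.0645 CPM fed and 1.94 ± 1.96 CPM fasted (3.93 ± 0.79, adjusted p = 6.92e-04), or 3.09 without fasted library 5, and Dbp rose from 0.578 ± 0.110 to 2.21 ± 0.356 CPM (1.93 ± 0.43, adjusted p = 0.00147). Arntl, the core activator BMAL1, averaged 29.4 ± 1.55 CPM fed and 25.8 ± 1.96 CPM fasted (-0.19 ± 0.09, adjusted p = 0.114), and it fell by library size and on TPM. The labels give no time of day for tissue collection.

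Proteasome genes rose. Of 25 proteasome subunits 24 rose and none fell, median 0.60; by library size 18 rose and on log2(TPM + 1) 11, with none falling in either. Psmd4, a ubiquitin receptor of the regulatory particle, was at 78.5, 72.4, 62.7, 58.8 and 60.7 CPM in the fed and 170, 171, 182, 176 and 178 CPM in the fasted libraries (1.4 ± 0.13, adjusted p = 4.17e-08). Psmb5, the chymotrypsin-like subunit, rose by 1.07 ± 0.26, and Psma4 was the member not called (0.13 ± 0.10, adjusted p = 0.336). In the autophagy list 12 of 26 rose and 1 fell. Bnip3, a mitophagy receptor, rose from 77.6 ± 11.6 to 282 ± 31.9 CPM (1.86 ± 0.17, adjusted p = 1.96e-08) and Map1lc3b, which coats autophagosomes, by 1.11 ± 0.13. The kinase Ulk2 fell (-0.83 ± 0.09, adjusted p = 1.44e-07). With scaling by library size the autophagy counts were 7 and 4. Fbxo31, a ubiquitin ligase subunit, rose from 11.4 ± 2.38 to 66.6 ± 20.9 CPM (2.54 ± 0.29, adjusted p = 1.26e-06).

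ER chaperones moved opposite to cytosolic heat shock genes. Of 20 genes of ER folding 13 fell and none rose, median -0.83. Pdia6, a disulphide isomerase, was at 253, 185, 158, 204 and 181 CPM in the fed and 81.9, 77.6, 71.9, 57.8 and 52.5 CPM in the fasted libraries (-1.52 ± 0.16, adjusted p = 1.76e-07), without overlap. Canx and Calr, the lectin chaperones whose promoters are shown above with it, fell as well (-0.67 ± 0.12 and -0.94 ± 0.15). Sdf2l1 fell from 13.4 ± 6.92 to 1.72 ± 0.360 CPM (-2.98 ± 0.39, adjusted p = 7.04e-06) and Hyou1 fell by 1.42 ± 0.33. Hspa5, the master chaperone BiP, averaged 612 ± 304 CPM fed and 377 ± 103 CPM fasted with overlap (-0.70 ± 0.29, adjusted p = 0.0622), and it passed the threshold in 9 alternatives. Of 15 heat shock genes 9 rose and none fell, against 5 and 1 on log2(TPM + 1). Hspa8, the constitutive cytosolic member, rose from 714 ± 299 to 1708 ± 518 CPM (1.26 ± 0.30, adjusted p = 0.00261), and Cirbp, the cold-inducible RNA-binding protein, by 1.15 ± 0.32. In the integrated stress response 4 of 14 rose and 1 fell, or 2 fell by library size, against 18.0% higher and 18.1% lower over all genes. Trib3 rose from 1.09 ± 0.384 to 4.78 ± 1.48 CPM (2.13 ± 0.43, adjusted p = 6.61e-04).

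In nitrogen metabolism 5 of 14 genes of the urea cycle and glutamine list rose and 3 fell. Arg1, which releases urea, rose by 1.28 ± 0.19, Asl from 262 ± 32.2 to 753 ± 169.5 CPM (1.52 ± 0.22, adjusted p = 1.60e-05), and Otc fell from 342 ± 36.4 to 171 ± 35.7 CPM (-1.0 ± 0.17, adjusted p = 6.66e-05). Tdo2, which degrades tryptophan, rose from 869.7 ± 111 to 2204 ± 392 CPM (1.34 ± 0.18, adjusted p = 5.30e-06).

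Respiratory chain and ribosomal protein genes showed shifts whose counts hung on the scaling. Of 38 nuclear OXPHOS subunits 24 rose and none fell, median 0.44, against 8 by library size and 5 on log2(TPM + 1). Of 40 cytosolic ribosomal proteins 25 rose and none fell, median 0.44, against 3 and 1. For the TCA cycle 10 of 15 rose, 7 by library size and 6 on log2(TPM + 1). Ribosomal proteins have many processed copies in the genome, so their counts are uncertain. Mitochondrially encoded mRNAs took 6.11% ± 0.79 (SD) of counts outside ribosomal RNA in the fed and 6.39% ± 0.58 in the fasted libraries (exact two-sided permutation p = 0.452).

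Interferon-stimulated genes fell. Of 25 tested 21 fell and none rose, median -1.06, with the same counts by library size. With the share of ribosomal RNA as a covariate 18 fell. Gbp7, a guanylate-binding protein, was at 31.3, 47.2, 29.5, 37.6 and 26.0 CPM in the fed and 10.6, 11.7, 7.70, 8.32 and 9.41 CPM in the fasted libraries (-1.85 ± 0.17, adjusted p = 3.28e-08), without overlap. Isg15, a ubiquitin-like modifier, was at 15.2, 44.1, 9.58, 10.4 and 7.99 CPM in the fed and 3.08, 6.46, 3.26, 3.17 and 4.15 CPM in the fasted libraries (-2.11 ± 0.45, adjusted p = 0.00139). Without fed library 2, the highest, the difference was -1.42. Ifit1 averaged 18.5 ± 11.7 CPM fed and 6.70 ± 2.40 CPM fasted (-1.47 ± 0.43, adjusted p = 0.0127), and its call was lost without fed library 2 (-1.03, adjusted p = 0.052) and with the share of ribosomal RNA as a covariate (-1.28, adjusted p = 0.0598). Ifit3 fell by 1.44 ± 0.39, also with overlap. Among all 41 tested genes whose promoter held the response element, 27 fell, 4 rose and 10 were not called. Of all 11118 tested genes with a promoter, 2058 fell and 2166 rose. The 41 include 7 genes of the interferon list, which was chosen with earlier results of these data known. Markers of Kupffer cells and macrophages, which respond to interferon, fell in 6 of 13 cases and rose in 1, which was not called by library size; their summed level was 416 to 946 CPM fed and 435 to 542 CPM fasted, and their part in the result was not tested. In bulk tissue, fewer cells of a type and less RNA per cell cannot be told apart.

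Complement and coagulation genes, made largely by hepatocytes, fell in 14 of 26 cases and rose in 1. C8a, a subunit of the membrane attack complex, was at 453, 429, 410.1, 413 and 293 CPM in the fed and 114, 86.0, 91.5, 102 and 97.4 CPM in the fasted libraries (-2.02 ± 0.15, adjusted p = 1.34e-09), and the lectin Mbl2 fell from 598 ± 46.4 to 205 ± 28.2 CPM (-1.55 ± 0.13, adjusted p = 1.03e-08). F12 was the member that rose (0.49 ± 0.13, adjusted p = 0.00539), a call lost by library size (0.27) and on log2(TPM + 1) (0.20).

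Genes of DNA replication and mitosis fell in 13 of 24 cases and rose in 2, or 1 by library size, from low levels. With the share of ribosomal RNA as a covariate 9 fell, with voom 11 and by library size 16. Mki67, a proliferation marker, was at 3.13, 7.45, 3.32, 3.38 and 2.43 CPM in the fed and 0.695, 0.801, 1.59, 1.16 and 1.34 CPM in the fasted libraries (-1.82 ± 0.35, adjusted p = 3.18e-04), highest in fed library 2. Top2a fell from 2.74 ± 1.90 to 0.676 ± 0.193 CPM (-2.0 ± 0.40, adjusted p = 4.90e-04), and the replication helicase subunit Mcm7 rose slightly (0.37 ± 0.11, adjusted p = 0.0118), a call lost by library size and on TPM. Growth arrest genes rose in 7 of 16 cases, or 4 by library size, and fell in 1. Cdkn1a, which encodes the inhibitor p21, was at 24.3, 10.0, 7.90, 17.3 and 11.9 CPM in the fed and 129, 88.9, 161, 109 and 147 CPM in the fasted libraries (3.15 ± 0.42, adjusted p = 1.39e-05), without overlap, and the stress gene Gadd45b rose from 0.681 ± 0.439 to 7.90 ± 3.38 CPM (3.53 ± 0.43, adjusted p = 2.73e-06).

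Marker genes of other liver cells moved in both directions. Of 20 collagen and matrix genes 9 fell, or 14 on log2(TPM + 1), and none rose. Col3a1, a fibrillar collagen of stellate cells, fell from 31.7 ± 12.1 to 6.52 ± 1.27 CPM (-2.28 ± 0.29, adjusted p = 5.52e-06). Stellate cell and fibroblast markers fell in 4 of 11 cases, with a summed level of 499 to 656 CPM fed and 491 to 611 CPM fasted. Folr2, a macrophage marker, fell by 1.61 ± 0.19, and Lyve1 of sinusoidal endothelium rose from 12.7 ± 2.81 to 49.2 ± 9.94 CPM (1.95 ± 0.37, adjusted p = 4.40e-04). Of 12 endothelial markers 3 rose and 3 fell, near the shares over all genes, and by library size 1 rose and 3 fell. Of 8 neutrophil and monocyte markers 4 rose, S100a9 from 0.980 ± 0.286 to 2.92 ± 0.600 CPM (1.57 ± 0.23, adjusted p = 1.38e-05). Of 13 T, B and NK cell markers 1 fell, or 3 on log2(TPM + 1). Of 8 adipocyte markers 2 passed the filter on low counts, Fabp4, which rose, and Car3, also a liver gene, which fell. The Fabp4 call was lost by library size, on log2(TPM + 1) and without fasted library 3. Adipoq, a defining adipocyte marker, averaged 0.0270 CPM in the fed libraries. No mesothelial marker of 7 was called. Cela1, an elastase also made in pancreas, fell from 19.3 ± 5.27 to 4.51 ± 0.905 CPM (-2.10 ± 0.23, adjusted p = 3.32e-07).

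Several further genes changed steeply, 3 of them (Hsd3b5, Selenbp2 and Cyp17a1) members of the lists of sex-biased liver genes. Hsd3b5, a steroid reductase known from male liver, was at 38.6, 21, 10.6, 3.23 and 11.8 CPM in the fed and 0, 0.0858, 0.0389, 0.163 and 0 CPM in the fasted libraries (-8.03 ± 1.04, adjusted p = 1.36e-05). Fasted library 4 held the highest of the fasted values, and without it the difference was -9.09. On log2(TPM + 1) the difference in Hsd3b5 was -4.49. Its relative Hsd3b2 fell by 4.56 ± 0.33, and members of this family are close copies. Selenbp2 fell from 61.0 ± 41.7 to 1.45 ± 0.847 CPM (-5.40 ± 0.61, adjusted p = 2.92e-06), Paxx, a DNA repair factor, from 28.3 ± 7.45 to 1.80 ± 0.440 CPM (-3.96 ± 0.30, adjusted p = 4.67e-09), the transporter gene Abca8a from 177 ± 27.8 to 19.3 ± 3.85 CPM (-3.20 ± 0.15, adjusted p = 1.29e-12), and the acetyltransferase Nat8f1 fell by 3.20 ± 0.17. The alcohol dehydrogenase Adh4 fell by 2.38 ± 0.15 and the polyamine oxidase Paox fell by 2.24 ± 0.14. Upward, Cgref1 rose from 0.143 ± 0.0613 to 9.97 ± 2.93 CPM (6.10 ± 0.36, adjusted p = 6.63e-11), the surface protein Ly6d from 0.388 ± 0.133 to 15.0 ± 3.46 CPM (5.25 ± 0.39, adjusted p = 3.49e-09) and the water channel Aqp4 from 0.386 ± 0.0747 to 11.6 ± 1.28 CPM (4.90 ± 0.35, adjusted p = 1.65e-09). The translation repressor Eif4ebp3 rose from 0.846 ± 0.549 to 17.9 ± 7.64 CPM (4.39 ± 0.74, adjusted p = 1.91e-04) and Cyp17a1, a steroid hydroxylase, from 64.7 ± 34.1 to 452 ± 102 CPM (2.81 ± 0.38, adjusted p = 1.39e-05). Tmem120a rose by 2.49 ± 0.12, the lectin Lgals4 by 2.20 ± 0.14 and Clstn3 by 3.19 ± 0.22. Gapdh, of the glycolysis list, which has many near-identical copies, was at 3.84, 3.74, 5.71, 3.76 and 7.50 CPM in the fed and 9.49, 123, 10.6, 176 and 206 CPM in the fasted libraries, uneven among the fasted libraries (4.42 ± 1.0, adjusted p = 0.00244), and is uncertain for that reason. In Plin2+/+ liver its difference had the other sign and was not called (-2.08 ± 0.91, adjusted p = 0.0760 in edgeR). The edgeR interaction had an unadjusted p of 1.67e-04 and an adjusted p of 0.215.

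Beside the Plin2+/+ response, in which 6957 of the same genes (42.6%) were called, 20.9% higher and 21.7% lower, no gene passed the test of a difference between the responses (edgeR interaction, 0 of 16312, 0.0%). The smallest adjusted p was 0.0602, for H2-Ab1, while 2250 genes (13.8%) had an unadjusted p under 0.05. DESeq2 called 62 genes, and voom 2. The responses share no library. The main genes of the fast stood side by side: Cpt1a 2.0 ± 0.11 in the null and 1.75 ± 0.11 in Plin2+/+ liver, Pck1 1.67 ± 0.43 and 1.24 ± 0.42, Cidec 9.27 ± 0.56 and 7.91 ± 0.51, Hmgcs1 -2.78 ± 0.38 and -3.05 ± 0.38.

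Peroxisomal genes were among those with a small unadjusted interaction p. It was under 0.05 for 5 of 17 genes of peroxisomal oxidation, against 13.8% of all genes. Other lists had like shares, such as 13 of 40 cytosolic ribosomal proteins, 10 of 38 nuclear OXPHOS subunits and 5 of 14 genes of de novo lipogenesis. In others the share was lower, such as 0 of 12 genes of bile acid synthesis. Ehhadh rose by 4.26 ± 0.19 in the null and 3.54 ± 0.18 in Plin2+/+ liver (difference 0.72 ± 0.23, unadjusted p = 0.00549, adjusted p = 0.247). For Acaa1b the responses were 2.37 ± 0.31 and 1.01 ± 0.30 (unadjusted p = 0.00468). These differences did not pass adjustment over all genes in edgeR. For Thrsp, Srebf1 and Sqle the fold changes were closer to 0 in the null liver. Thrsp was at -2.43 ± 0.41 in the null and -4.86 ± 0.47 in Plin2+/+ liver (unadjusted p = 6.53e-04, adjusted p = 0.215), Srebf1 at -3.32 ± 0.27 and -4.70 ± 0.29 (unadjusted p = 9.59e-04), and the epoxidase gene Sqle at -3.62 ± 0.33 and -4.97 ± 0.36 (unadjusted p = 0.00664).

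Further genes with an unadjusted interaction p under 0.01 were Ly6d (5.25 ± 0.39 against 3.26 ± 0.36), Cgref1 (6.10 ± 0.36 against 4.49 ± 0.33), Aqp4 (4.90 ± 0.35 against 3.35 ± 0.32), Lifr (-2.64 ± 0.16 against -1.92 ± 0.15), Dbp (1.93 ± 0.43 against -0.051 ± 0.41) and Cirbp (1.15 ± 0.32 against -0.22 ± 0.31). In the other direction stood Txnip, an inhibitor of thioredoxin and glucose uptake (1.41 ± 0.22 against 2.45 ± 0.22), the folate carrier Slc25a32 (0.99 ± 0.19 against 2.02 ± 0.19) and the amino acid transporter Slc16a10 (0.26 ± 0.19 against 1.45 ± 0.20). Col5a3, a collagen gene, was at -0.89 ± 0.29 against -2.55 ± 0.31, a null call lost without fed library 2, fasted library 1 or fasted library 2. Arhgef37 was at -1.19 ± 0.26 against 0.041 ± 0.26, and Arl13b, a ciliary GTPase, was at -0.25 ± 0.31 against 1.37 ± 0.31. None of these differences passed the adjusted threshold.

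MHC class II genes present antigen on macrophages, dendritic cells and B cells. All 7 of the list had an unadjusted interaction p under 0.05, against 13.8% of all genes. The list was chosen with earlier results of these data known and holds H2-Ab1, so this count is not independent support. H2-Ab1 (GRCm38, chromosome 17 from 34257689 to 34269419) was at 13.4, 15.1, 13.2, 9.46 and 11.8 CPM in the fed and 8.4, 17.4, 12.5, 11.2 and 10.6 CPM in the fasted libraries of the null groups. In Plin2+/+ liver it was at 12.3, 16.9, 20.1, 19.2 and 14.4 CPM in the fed and 4.57, 5.34, 4.34, 7.72 and 4.6 CPM in the fasted libraries. The null groups overlapped (-0.072 ± 0.19, adjusted p = 0.793) and the Plin2+/+ groups did not, with a log2 fold change of -1.65 ± 0.19. The difference of the responses was 1.58 ± 0.27 (unadjusted p = 5.85e-06). Its adjusted p lay between 0.0131 and 0.221 over 29 alternatives other than DESeq2, which gave 9.33e-05. H2-Aa was at -0.30 ± 0.23 in the null and -1.53 ± 0.24 in Plin2+/+ liver. In the null H2-Aa was called lower without fasted library 2 (-0.58, adjusted p = 0.0344 in edgeR). With all libraries it was also called lower on log2(TPM + 1) (-0.61, adjusted p = 0.0314 in limma) and on log2(TPM + 0.1) (-0.66). H2-Eb1 was at -0.087 ± 0.21 in the null and -1.42 ± 0.22 in Plin2+/+ liver, Cd74, the invariant chain, at -0.055 ± 0.18 and -1.17 ± 0.18, and H2-DMa at -0.28 ± 0.20 and -1.44 ± 0.21. In the null liver H2-DMb1 (-0.61 ± 0.20, adjusted p = 0.0188) and the class II activator Ciita (-0.84 ± 0.22, adjusted p = 0.00536) fell, the first no longer called without fed library 2 or fasted library 1. T, B and NK cell markers fell in 6 of 13 cases and rose in 1 in Plin2+/+ liver, where 21.7% of all genes fell and 20.9% rose. In the null 1 of the 13 fell, where 18.1% of all genes fell. The part of these markers in the result was not tested.

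**Figure D4:**
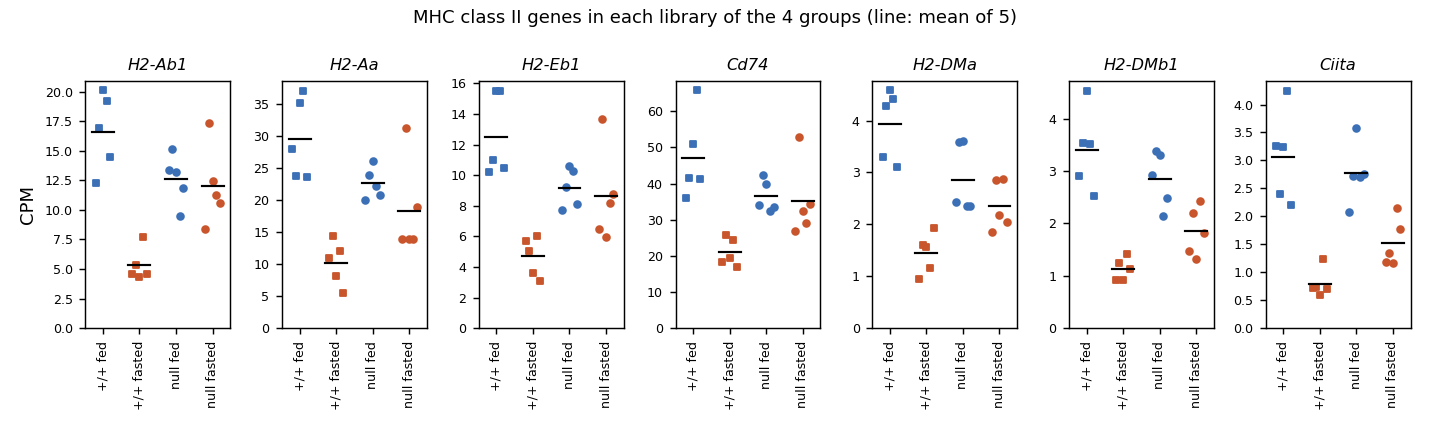
TMM-scaled CPM (y axes, linear from 0) of the MHC class II genes in each library of the 4 groups, 1 point a library, with a line at the mean of 5. In Plin2+/+ liver the fasted points lie below the fed points for H2-Ab1, while in the null liver they overlap.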

How the data were processed

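The study holds 20 liver RNA libraries, and the authors deposited raw counts for Ensembl mouse genes beside TPM values. The deposited TPM are counts per length, scaled to 1 sum within each library. The submitters' processing notes name HISAT2 1.2.1, featureCounts 1.4.6-p1 and, against the mouse identifiers, the human build GRCh38. Which mouse build, annotation and strand option applied is, in the sources used here, not given, and counts of overlapping or antisense genes are uncertain for that reason. Sequencing depth was 34295697 to 47586449 counts a library in the Plin2-null groups, and p-values reflect the spread between libraries, not this depth.

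Libraries were grouped by label, the genotype of 10 being read by elimination. Counts were fitted in R 4.3.3 with edgeR 4.0.16 (filterByExpr, TMM, robust glmQLFit, glmQLFTest) over all 20 libraries with 1 coefficient per group, and p-values were Benjamini-Hochberg adjusted over 16312 genes. Each standard error is the size of the log2 fold change divided by the root of its F statistic. The interaction is the Plin2-null response minus the Plin2+/+ response. Chi-square per degree of freedom was at least 45.3 in each of 20 pairs of libraries within the Plin2-null groups, far above sampling noise. Alternatives used DESeq2 1.42.0, limma 3.58.1 (voom, and log2(TPM + 1) or log2(TPM + 0.1)), other scalings, filters and covariates, and each library left out.

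The genes named came from Plin2, the 12 genes rising and 12 falling most, those with the 12 smallest p and the 12 largest changes in TPM in each direction (called, at least 5 CPM, no overlap), 8 in each direction by interaction with an unadjusted p under 0.01, and members of the 78 lists. Some of these genes enter the counts but are not reported here by name. Members and lists were chosen with earlier results of these data known. On simulated counts with 16161 genes, 67 genes were changed 1.5-fold, 67 2-fold and 66 4-fold, and the others were left flat. The fasting fit called 35.8%, 71.6% and 100% of these, with 6 false calls. A far smaller share of genes changed there than was called in the data (36.1%), so these rates need not carry over. Positions are from GENCODE M21 (GRCm38) and promoters from RefSeq (GRCm38.p6).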

Additional observations from a re-analysis of the deposited data

Results flagged for a closer look

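A library of 5 was set apart when its gap to the nearest other exceeded 0.71 of its group's range. This held for 38 of 396 groups of values checked (9.6%). The cutoff gives about 1 in 20 for independent, normally distributed values. CPM need not be normal and many flags share a library, so that rate is no measure of chance here. Values are CPM in the Plin2-null library, with the range of the other 4 libraries of its group in parentheses.

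Fasted library 1 stood high for Hilpda at 18.1 (3.60 to 5.90) and Insig1 at 46.9 (17.0 to 25.6). Fasted library 1 stood low for Top2a at 0.332 (0.739 to 0.793). Fasted library 2 stood high for H2-Aa at 31.3 (13.9 to 18.8) and Cd74 at 52.9 (26.8 to 34.2). Fasted library 3 stood high for Pygl at 318 (171 to 211). Fasted library 4 stood high for Slc27a1 at 71.2 (29.8 to 36.5) and Plin3 at 44.8 (24.0 to 29.5). Fasted library 4 stood low for Cyp2c70 at 16.2 (47.0 to 55.8). The share of mitochondrial mRNAs in counts outside ribosomal RNA was 5.36% in fasted library 4 and 6.58% to 6.71% in the others of its group. Fasted library 5 stood high for Plin2 at 130.4 (75.1 to 85.4). Fed library 1 stood high for 11 genes. They included Plin2 at 32.1 (15.3 to 17.8), Cpt1a at 337 (230.3 to 252), Slc25a20 at 109 (76.8 to 83.1) and Crat at 55.6 (32.0 to 37.2). Further ones were Ehhadh at 321 (233 to 253), Acsl1 at 1154 (749 to 822) and Fgf21 at 1.75 (0.151 to 0.350). The rest were Angptl4 at 73.8 (9.60 to 24.5), Per1 at 9.88 (2.65 to 4.21), Eif4ebp3 at 1.80 (0.469 to 0.748) and Txnip at 102 (67.9 to 73.8). Fed library 2 stood high for 8 genes. They were Echs1 at 156 (119.5 to 129), Acss2 at 442 (130.5 to 175), Acly at 564 (233 to 316) and Isg15 at 44.1 (7.99 to 15.2). The others were Mki67 at 7.45 (2.43 to 3.38), Top2a at 6.07 (1.33 to 2.25), Paox at 72.8 (54.4 to 58.9) and Ifit3 at 47.2 (10.1 to 20.7). Fed library 4 stood high for Cyp4a14 at 964 (309.7 to 375) and Srxn1 at 45.9 (28.1 to 32.5). The share of the 10 most abundant genes in counts outside ribosomal RNA was 21.9% in fed library 4 and 20.3% to 20.7% in the others of its group. The share of the 100 most abundant genes in counts outside ribosomal RNA was 45.6% in fed library 4 and 44.4% to 44.7% in the others of its group. Fed library 4 stood low for Scd1 at 1757 (4754 to 5905). Fed library 5 stood high for Angptl8 at 62.4 (8.13 to 17.5). Fed library 5 stood low for Slc27a1 at 4.04 (5.03 to 5.38) and C8a at 293 (410.1 to 453).

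Genes of fatty acid oxidation and Fgf21 and Angptl4, which rose on fasting, were among those high in fed library 1. No explanation of these values was tested.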

How the results depend on the processing

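The split between rising and falling genes in the Plin2-null liver moved with scaling. By library size 1376 rose; on log2(TPM + 1) 1014 rose and 4566 fell, and on log2(TPM + 0.1) 1008 and 4561. Rising genes of Plin2+/+ liver numbered 1854, 1567 and 1569 under these settings. Other normalizations, filters, tools and covariates kept both null counts within 1.5 times, and leaving out single libraries gave 2418 to 3042 rising and 2646 to 3132 falling genes. For the interaction, edgeR with no filter called 1 gene, DESeq2 33 higher and 29 lower, voom 1 and 1, and leaving out single libraries 0 to 1 in each direction. H2-Ab1 and 2500002B13Rik were the genes called outside DESeq2. The cause of these differences was not tested.

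The difference in the share of the 100 most abundant genes was 2.83 percentage points, 2.09 to 3.72 with single libraries left out. The share of ribosomal RNA differed by 4.94 points (exact permutation p = 0.159), and by 2.05 to 6.71 with single libraries left out, where only the difference without fasted library 5 passed (6.71, p = 0.0317; the others 0.0952 to 0.333). Of 5941 values under alternatives for the 192 genes examined singly, none reversed a call's direction, 40 lost their call and 27 gained one. Many of these genes were picked for a small p or a large change in these data, so their calls were likely to hold. Over all genes, 4330 of 5896 calls were kept in the same direction by library size. On log2(TPM + 1), with 15996 genes tested, 3878 were kept. The genes named by rule numbered 76, or 81 with a minimum of 1 CPM, 62 of them shared. No paired analysis was possible because each library's title carries a number of its own, shared with no other. Depth limits genes near 1 CPM, whose fold changes depend on the offset added to low values.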

Other observations

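Drug-metabolising enzymes changed unevenly in the Plin2-null liver. Of 24 Cyp2 and Cyp3a cytochromes P450 9 fell and 3 rose, and of 18 UGT and sulfotransferase genes 6 fell and 2 rose, or 8 and 1 without fasted library 3 and 9 and 1 by library size. Cyp2c50 fell from 763 ± 85.9 to 249.6 ± 61.8 CPM (log2 fold change -1.61 ± 0.21, adjusted p = 4.00e-06 in edgeR), and Cyp1a2, a pericentral enzyme of caffeine and drug oxidation, fell from 414 ± 87.5 to 120.2 ± 44.2 CPM (-1.79 ± 0.24, adjusted p = 5.52e-06). Of 10 pericentral hepatocyte markers, Cyp1a2 among them, 2 rose and 2 fell, near the shares over all genes. Cyp3a25 rose from 489 ± 163 to 1023 ± 259.7 CPM (1.06 ± 0.22, adjusted p = 6.26e-04). Members of these families are close copies, so single values are uncertain. In the list of NRF2 targets, glutathione and metallothionein genes 6 of 19 rose and 6 fell, but 3 rose without fasted library 3 or with the share of ribosomal RNA as a covariate, and 2 rose and 8 fell by library size. Srxn1, which repairs oxidised peroxiredoxins, rose from 33.6 ± 7.04 to 96.6 ± 1.36 CPM (1.52 ± 0.11, adjusted p = 8.23e-10), and Gstm3, a glutathione transferase, fell from 55.9 ± 27.0 to 6.25 ± 3.45 CPM (-3.16 ± 0.37, adjusted p = 3.09e-06).

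Among 23 nuclear receptors and coregulators 10 rose and 2 fell, against 4 and 4 with scaling by library size. Ppara, the receptor for fatty acids, was at 171, 102, 98.6, 95.3 and 137 CPM in the fed and 162, 158, 151, 278 and 201 CPM in the fasted libraries (0.65 ± 0.19, adjusted p = 0.00947), with overlapping groups, and was no longer called by library size (0.48) or on log2(TPM + 1) (0.35). Ppard, its relative, was at 41.4, 21.6, 21.9, 18.7 and 26.7 CPM in the fed and 5.17, 4.06, 4.66, 8.30 and 5.30 CPM in the fasted libraries and fell without overlap (-2.24 ± 0.29, adjusted p = 7.04e-06). The coactivator gene Ppargc1a rose from 8.01 ± 2.58 to 18.4 ± 7.94 CPM (1.19 ± 0.38, adjusted p = 0.0212), a call lost without fed library 1, fed library 5 or fasted library 2 (adjusted p = 0.0512, 0.0544 and 0.0706), and likewise with no filter (0.0557), on log2(TPM + 1) (0.0618) and with the share of ribosomal RNA as a covariate (0.0619). Creb3l3, a membrane-bound factor of hepatocytes, rose from 132 ± 38.7 to 302 ± 30.5 CPM (1.2 ± 0.18, adjusted p = 2.48e-05). The sterol exporter genes moved apart, Abcg8 rising from 69.4 ± 15.6 to 118 ± 8.00 CPM (0.76 ± 0.18, adjusted p = 0.00231), which was not called on log2(TPM + 1) (0.49), and Abca1 falling from 261 ± 27.3 to 179 ± 34.9 CPM (-0.55 ± 0.12, adjusted p = 0.00147).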
